A study of Mus musculus with 14 samples.

Results

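The genes described here encode 10 nuclear receptors for retinoids and lipids, namely the retinoic acid receptors Rara, Rarb and Rarg, the retinoid X receptors Rxra and Rxrb, the peroxisome proliferator-activated receptors Pparg and Ppard, the liver X receptors Nr1h2 and Nr1h3, and the vitamin D receptor Vdr. They were taken by gene symbol from the deposited table of 14329 genes. Of the 10, 8 had a row, while Rarb and Vdr were not analysed here. Rarg was the starting point, because its counts in wild-type (WT) mice had set it apart, and the question was whether the other receptors, and the transgenic TASTPM mice, matched it. What any fit gives for Rarg in a comparison that uses the WT libraries therefore follows from that choice, and a fit to all 4 groups takes part of its spread from those libraries too. It is given as a description and supports nothing.

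Bulk RNA-seq was made from microglia sorted as CD45low CD11b+ CX3CR1+ cells, 2000 per sample, with a gate that left out Ly6C+ and CCR2+ cells, from the dorsal lumbar spinal cord at day 5 after serum transfer (ST). Male and female mice of 6 months were used, either WT on a C57BL/6J background or heterozygous TASTPM, a line that carries human APP with the Swedish mutation under the neuronal Thy-1 promoter. Arthritogenic K/BxN serum or control serum was injected at days 0 and 2. There were 4 libraries each of WT K/BxN ST and TASTPM K/BxN ST and 3 each of WT Control ST and TASTPM Control ST. The study's methods count individual mice as replicates, while the labels tie no library to a mouse.

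These receptors are transcription factors that sit on DNA and change the transcription of nearby genes when a small fat-soluble ligand binds. RARs respond to retinoic acid, LXRs to oxysterols, PPARs to fatty acids and their derivatives, and each works as a heterodimer with an RXR. In macrophages, LXRs drive cholesterol efflux, PPAR gamma drives lipid uptake and storage, and RAR alpha is abundant in myeloid progenitors and monocytes.

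The libraries held 14223015 to 20239175 reads on genes. Microglia markers such as Csf1r and Cx3cr1 were high in every library, with a summed level of 338074 to 1301947 normalized counts over 11 genes. A set of 4 K/BxN ST libraries stood apart, WT libraries 1 and 2 and TASTPM replicates 1 and 2. Their 10 monocyte markers summed to 366238 to 679891 normalized counts, against 9335 to 12196 in the other 4 K/BxN ST libraries and 8961 to 23264 in the 6 Control ST libraries. Within them, Lyz2 reached 258065 to 536223 normalized counts, Chil3 25628 to 69026 and Ly6c2 12898 to 29133. Of the defining monocyte markers, S100a4 and Ace were each at 0 in 9 of the 10 other libraries and Vcan in 7. The same 4 libraries had the lowest microglia marker sums, 338074 to 804883. Their neutrophil marker sums ran from 10337, in WT library 2, to 223471, against 4061 to 11935 under Control ST. The marker sums of 2 other cell types were highest in the same 4 libraries, though not every gene in these sums was. Their dendritic cell markers summed to 768 to 7673 normalized counts, against 136 to 224 in the other K/BxN ST libraries and 0.838 to 220 under Control ST. Their border-associated macrophage markers summed to 1226 to 3343, against 0 to 630 and 72.1 to 947. Of the dendritic cell markers, Cd209a was at 440 to 6678 in the 4 libraries and at most 2.18 elsewhere. Zbtb46 was at 4.43 to 132 in them and at 68.8 to 223 in the other K/BxN ST libraries. Lyve1, a border-associated macrophage marker, was at 148 to 331 in them and at 476 in TASTPM Control ST library 2. In bulk samples, fewer cells of a type and less RNA per cell cannot be told apart. Fold changes of the receptors are given with and without these 4 libraries.

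Promoter sequence is shown for the RAR pair whose transcripts were seen in different sets of libraries. Rarg was seen in all 8 libraries of K/BxN ST and all 3 of TASTPM Control ST. Rara was seen mainly in the 4 high in monocyte markers. The windows run from 210 to 11 bases before the start of the canonical transcript on the gene's strand in GRCm39. Capitals mark matches to AGTTCA (a form of the nuclear receptor half-site), and to GGGCGG (the GC box), on either strand. The consensus half-site AGGTCA was searched as well, and none of the matches overlapped.
Rarg, chr15:102154946-102155145, minus strand: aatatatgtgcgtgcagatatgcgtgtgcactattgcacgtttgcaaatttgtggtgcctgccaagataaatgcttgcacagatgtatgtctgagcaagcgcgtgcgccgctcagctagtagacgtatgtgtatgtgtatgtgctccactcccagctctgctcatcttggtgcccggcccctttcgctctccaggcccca
Rara, chr11:98828224-98828423, plus strand: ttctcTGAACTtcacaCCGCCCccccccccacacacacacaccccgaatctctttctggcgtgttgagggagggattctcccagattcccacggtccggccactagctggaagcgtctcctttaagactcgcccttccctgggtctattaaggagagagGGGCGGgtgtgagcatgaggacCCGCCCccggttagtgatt
The Rarg window had no match to any of the 3 motifs, and the Rara window had 1 AGTTCA and 3 GGGCGG. Over 12603 promoter windows of the same length, 9.31% held AGGTCA, 8.22% AGTTCA and 41.1% GGGCGG. The Rara window also overlaps an exon of the antisense lncRNA Gm46294.

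Rxrb, Nr1h2 and Rxra were the most abundant of the receptors. Compared per kb of exon over the 6 Control ST libraries, the level was 341 ± 84.1 (SD, n = 6) normalized counts per kb for Rxrb, 210 ± 30.6 for Nr1h2 and 106 ± 33.5 for Rxra. Ppard followed with 12.1 ± 9.09, Nr1h3 with 10.1 ± 11.6 and Rarg with 2.26 ± 3.58, and Rara and Pparg were below 1 per kb. The libraries of Rxrb and Nr1h2 overlapped, as did those of Ppard, Nr1h3 and Rarg, while every library of Nr1h2 lay above every library of Rxra, and every library of Rxra above every library of Ppard. Only 6 of the 8 receptors, Rarg, Rxra, Rxrb, Ppard, Nr1h2 and Nr1h3, had the 10 reads in at least 7 libraries needed for the test, and Rara and Pparg did not.

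**Figure D1:**
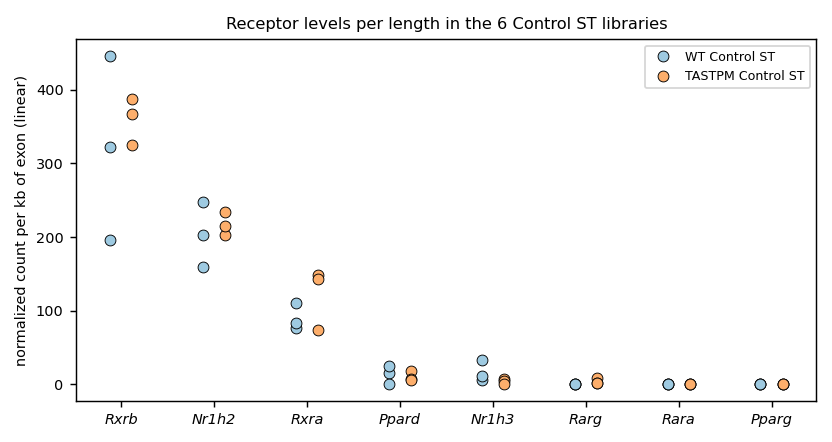
Level of each receptor in the 6 Control ST libraries, as normalized count per kb of exon on a linear axis, 1 point per library (WT pale blue, TASTPM pale orange). Rxrb, Nr1h2 and Rxra lie above all others, and Rara and Pparg lie at or near 0.

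Rarg, the retinoic acid receptor gamma gene, lies at chr15:102143373-102165952 on the minus strand of GRCm39. After K/BxN serum the WT libraries held 254, 136, 54.9 and 44.7 normalized counts of it, and after control serum all 3 WT libraries held 0. TASTPM libraries held 105, 85.6, 71.7 and 25.9 after K/BxN serum and 42.8, 9.99 and 9.99 after control serum. All 8 K/BxN ST libraries thus held Rarg reads, between 23 and 281 of them, and so did all 3 TASTPM Control ST libraries, with 9 to 41 reads. The WT K/BxN ST mean was at least 42.7-fold higher than 3 reads in the WT Control ST library with the highest floor, or at least 44.8-fold with the floors of the 3 libraries averaged. Without WT library 1 the bound was 27.4-fold, and without both high-monocyte WT libraries 17.4-fold. The TASTPM Control ST mean was at least 7.31-fold higher than the same floor, and at least 3.49-fold without TASTPM Control ST library 1, which held 42.8. Genes with every K/BxN ST library higher than all Control ST libraries in WT made up 3.67% of those tested, and genes with TASTPM higher than WT in the same way under Control ST 4.97%. Both shares use the WT libraries that chose Rarg and are a description.

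Did TASTPM mice match WT? In TASTPM the log2 fold change of Rarg between K/BxN ST and Control ST was 1.90. Fitted to the TASTPM libraries alone, it had an SE of 0.87 and a 95% interval of -0.04 to 3.85 (limma adjusted p = 0.948), and the lowest K/BxN ST library lay below the highest Control ST library. A two-sided exact permutation test over 35 splits gave p = 0.0857 for this difference. In the TASTPM comparison of the fit to all 4 groups, limma called 0 of 12645 genes (0% called; 533 at an unadjusted p under 0.05), edgeR also called 0, and DESeq2 without a filter called 88 (0.617%). Without the 2 high-monocyte TASTPM libraries the fold change was 1.34, and with the marker score as a covariate 1.11, both from fits that also hold the WT libraries. In WT the fold change that set Rarg apart was 6.60 on the log2(value + 1) scale, a size that depends on the pseudocount because the control group is at 0. In that comparison limma called 0.00791% of the 12645 genes, which was Rarg by the choice made, and nothing is read from it. Without the high-monocyte libraries the fold change was 5.66, and the pair of WT libraries left after K/BxN serum, at 54.9 and 44.7 normalized counts, were above all WT Control ST libraries. Among tested genes, 76 (0.601%) had 0 reads in all 3 WT Control ST libraries, and 5 (0.0395%) had in addition at least 1 read in every other library, Rarg being one of them. Both shares use the WT libraries that chose Rarg, so its place among these genes is a description and nothing is read from it.

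The genotypes were compared for Rarg under each serum. Under Control ST the TASTPM libraries were at 9.99 to 42.8 and the WT libraries at 0, whereas under K/BxN ST the TASTPM mean was 72.1 ± 33.6 (SD, n = 4) and the WT mean 122 ± 96.7 (SD, n = 4). The K/BxN ST groups overlapped, at 25.9 to 105 in TASTPM and 44.7 to 254 in WT, and the log2 difference of TASTPM from WT was -0.58 (SE 0.83), or -0.19 (SE 1.43) without the high-monocyte libraries. Both comparisons share the WT libraries that chose Rarg and are a description. Over all genes, DESeq2 without a filter called 0.589% between the genotypes under Control ST and 0.252% for the interaction, and nothing is read from these calls for Rarg.

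**Figure D2:**
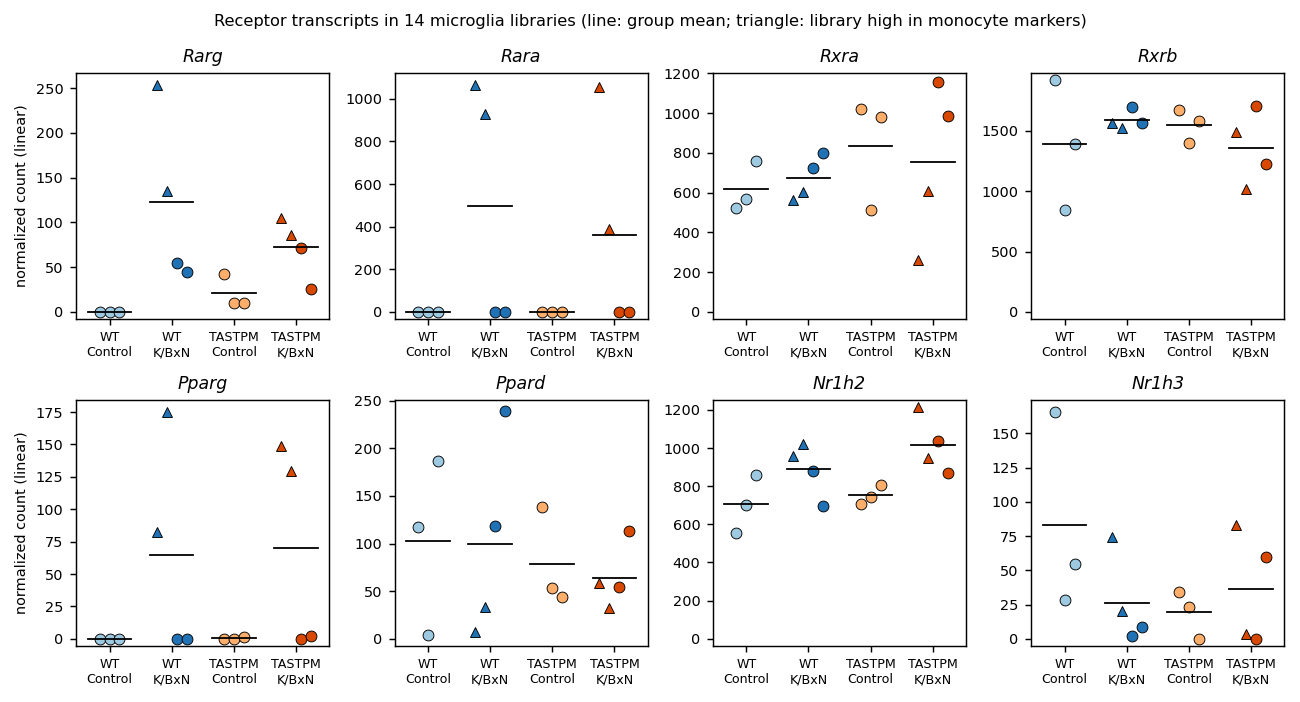
Normalized count (linear axis, 1 panel per gene) of the 8 receptors in each of the 14 libraries, grouped by genotype and serum, with lines for group means and triangles for the 4 K/BxN ST libraries high in monocyte markers. Rarg is 0 in WT Control ST and above 0 in every other library, and Rara and Pparg are above 3 normalized counts in the triangles only.

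Rara, which encodes retinoic acid receptor alpha, was seen in the 4 high-monocyte libraries and hardly elsewhere. After K/BxN serum, WT libraries 1 and 2 held 1067 and 928 normalized counts of it, and TASTPM replicates 1 and 2 held 1057 and 388. The other 10 libraries had 0 to 1.17, at most 1 read each. The log2 fold change between K/BxN ST and Control ST was 5.25 in WT (SE 2.72, limma adjusted p = 0.711) and 4.27 in TASTPM (SE 2.72, limma adjusted p = 0.964), in a fit to which Rara was added although it had too few libraries with reads. The groups overlapped in both genotypes, because 2 of 4 libraries carried nearly all the reads (two-sided exact permutation tests, p = 0.257 in WT and 0.286 in TASTPM). Without the 4 libraries, the fold changes were 0.53 (SE 1.75) and -0.11 (SE 1.75). DESeq2 fitted to all genes called Rara in WT (adjusted p = 0.0166), 1 of 275 genes called among 14268 (1.93%), and did not call it in TASTPM (adjusted p = 0.217; 0.617% called).

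Pparg, the gene for PPAR gamma, showed the same pattern of libraries at a lower level. After K/BxN serum, WT libraries 1 and 2 held 82.2 and 175 normalized counts, and TASTPM replicates 1 and 2 held 149 and 129. In the other 10 libraries it had 0 to 2.26, at most 2 reads. The fold changes were 3.46 in WT (SE 2.12, limma adjusted p = 0.751) and 3.49 in TASTPM (SE 2.12, limma adjusted p = 0.964), and without the 4 libraries 0 (SE 1.79) and 0.35 (SE 1.79). Genes with at least 10 reads in each of the 4 libraries and fewer than 10 in each other library numbered 111 of 14329 (0.775%), and Rara and Pparg were 2 of them. The sort gate left out Ly6C+ and CCR2+ cells, while Ly6c2 and Ccr2 transcripts were high in these 4 libraries (12898 to 29133 and 8537 to 27035 normalized counts). Dendritic cell and border-associated macrophage marker sums were also highest in them, and neutrophil marker sums ran from 10337 in WT library 2 to 223471 in WT library 1. The part of RNA from monocytes, neutrophils, dendritic cells or border-associated macrophages in the Rara and Pparg reads was not tested.

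**Figure D3:**
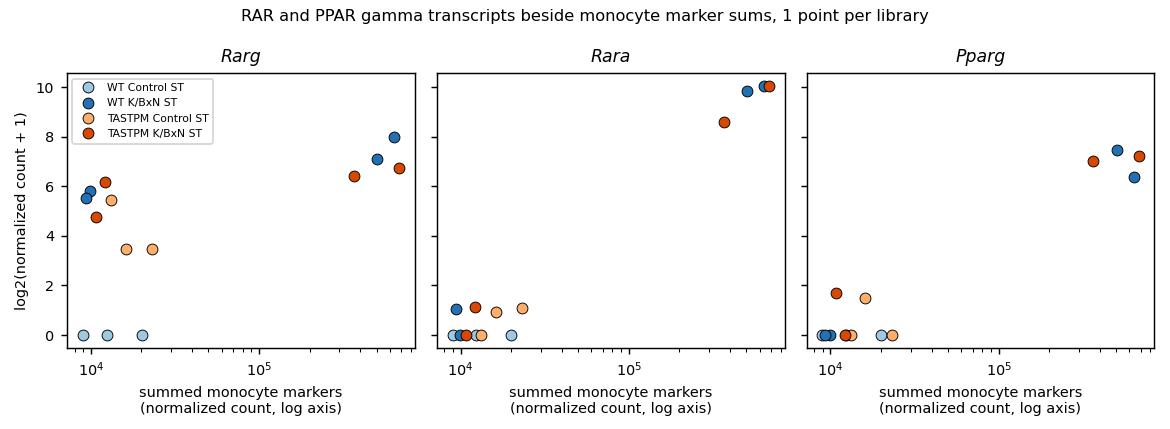
log2(normalized count + 1) of Rarg, Rara and Pparg against the summed monocyte markers (normalized counts, log axis), 1 point per library, coloured by group. Rara and Pparg are near 0 in the 10 libraries with low sums, while Rarg lies at 25.9 to 71.7 normalized counts in the 4 low-sum libraries given K/BxN serum.

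Rarg was also highest in the 4 high-monocyte libraries, at 85.6 to 254 normalized counts against 0 to 71.7 in the other 10, so its level moved with the marker sums too, and that part was not tested. Profiles were then compared over the 14 libraries. The genes most like Rara in log2 values were Emb, Ly6c2, Chil3, Lyz2 and Tmsb10, with Pearson r of 0.981 to 0.995, and those most like Pparg were Chil3, Emb, Ly6c2, Ccr2 and Lyz2, with r of 0.963 to 0.980. Most of these are monocyte genes, and the correlation rests on the 4 high libraries against the other 10, which held at most 1 read of Rara and 2 of Pparg. The genes most like Rarg were Rad18, Pclaf, Pop4, Kifc3 and Aacs (r = 0.877 to 0.915), picked over libraries that include those of WT that chose Rarg. Rad18 and Pclaf act in DNA damage tolerance and DNA replication. Pclaf ran from 394 to 2516 normalized counts in the 4 high-monocyte libraries and from 0 to 110 in the other 10. These are descriptions over libraries that share serum, depth and cell content, and have no p.

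Neither retinoid X receptor, the partners of all the others, passed the test. For Rxra, WT libraries held 563, 602, 721 and 801 normalized counts after K/BxN serum and 521, 569 and 759 after control serum. TASTPM libraries held 259, 607, 1156 and 987 after K/BxN serum and 1020, 511 and 980 after control serum. Both pairs overlapped, with log2 fold changes of 0.13 (SE 0.43, 95% interval -0.79 to 1.04) in WT and -0.30 (SE 0.43, 95% interval -1.21 to 0.62) in TASTPM. The 2 TASTPM K/BxN ST libraries with the lowest Rxra were the high-monocyte ones, and without the 4 high libraries the values were 0.32 (SE 0.34) in WT and 0.42 (SE 0.34) in TASTPM. For Rxrb, WT libraries held 1564, 1522, 1695 and 1569 after K/BxN serum and 1925, 847 and 1393 after control serum. TASTPM libraries held 1489, 1022, 1703 and 1224 after K/BxN serum and 1670, 1401 and 1585 after control serum. Its fold changes were 0.27 (95% interval -0.27 to 0.81) in WT and -0.21 (95% interval -0.76 to 0.33) in TASTPM, so a change of 2-fold lies outside both intervals, and without the 4 libraries 0.31 and -0.10.

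Among the liver X receptors, Nr1h2, the LXR beta gene, was at 1218, 947, 1039 and 868 normalized counts in TASTPM libraries after K/BxN serum and at 704, 744 and 809 after control serum, and these groups did not overlap. Genes separated in that direction made up 2.67% of those tested. The log2 fold change was 0.43 (SE 0.22, 95% interval -0.05 to 0.91, limma adjusted p = 0.964; two-sided exact permutation p = 0.0571). In WT, Nr1h2 was at 956, 1021, 878 and 698 after K/BxN serum and at 552, 702 and 860 after control serum, which overlapped, with a fold change of 0.34 (SE 0.22, limma adjusted p = 0.764). Without the 4 high-monocyte libraries the fold changes were 0.34 (SE 0.28) in TASTPM and 0.18 (SE 0.28) in WT. Nr1h3, the LXR alpha gene, was far lower and more scattered, with 74.1, 20.4, 2.39 and 8.72 normalized counts after K/BxN serum and 166, 28.5 and 54.4 after control serum in WT. TASTPM libraries held 83.2, 3.80, 0 and 59.8 after K/BxN serum and 34.5, 23.3 and 0 after control serum. Its fold changes were -2.10 (SE 1.67) in WT and 0.40 (SE 1.67) in TASTPM, and neither passed the test. Without the 4 libraries they were -3.50 (SE 2.01) and -0.29 (SE 2.01). Ppard, the gene for PPAR delta, was likewise scattered, from 4.19 to 239 normalized counts over the 7 WT libraries and from 32.3 to 138 over the 7 TASTPM libraries. Its fold changes were 0.13 (SE 1.25) in WT and -0.23 (SE 1.25) in TASTPM, with 95% intervals from -2.53 to 2.80 and from -2.89 to 2.43, wide enough to hold changes of several fold. Without the 4 libraries they were 1.80 (SE 1.35) and 0.19 (SE 1.35).

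**Figure D4:**
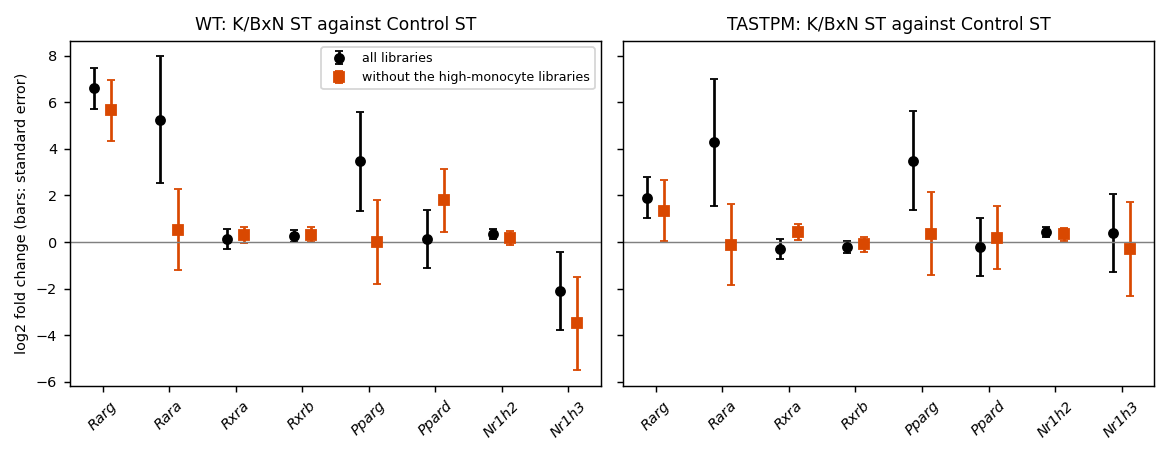
log2 fold change of K/BxN ST against Control ST (bars are standard errors) for the 8 receptors, in WT on the left and TASTPM on the right, with all libraries (black circles) and without the 4 high-monocyte libraries (orange squares). Without those libraries Rara and Pparg lie between -0.11 and 0.53 and Rarg in WT moves from 6.60 to 5.66, and Rxra, Rxrb and Nr1h2 lie within 0.43 of 0 throughout.

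None of the receptors tested other than Rarg was called in any of the 5 comparisons by limma, including the interaction of genotype and serum and the 2 comparisons between genotypes. Over all 12645 genes tested, limma called 1 (0.00791%) in the WT serum comparison, which was Rarg, and 0 in each of the others. The lack of calls is thus that of all genes and says nothing particular about these receptors. In the single-gene tests, 29 two-sided exact permutation tests were made and no Benjamini-Hochberg adjusted value was below 0.888. With 4 against 3 libraries the smallest possible p is 0.0286, and with 3 against 3 it is 0.1.

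Genes that act with the receptors were then examined. None of the coregulators (16 tested) was called in either serum comparison. Over all genes tested, limma called 0.00791% in WT and 0% in TASTPM. These shares stand beside every count of calls in the lists that follow, so a count of 0 is that of all genes. Ranked by the mean of both genotypes, the 3 largest changes were those of Ppargc1b, with log2 fold changes of 1.60 (SE 0.64) in WT and -0.31 in TASTPM, Ncoa3 (-0.05 and -0.66) and Nrip1 (-0.37 and -0.47). Without the 4 high-monocyte libraries the values were 2.36 and -0.32 for Ppargc1b, 0.03 and -0.25 for Ncoa3, and 0.29 and 0.02 for Nrip1. Among 15 other nuclear receptors tested, 0 were called. Nr1d1, a clock-linked repressor, was at 112, 164, 74.1 and 155 normalized counts in WT libraries after K/BxN serum and at 0, 2.51 and 44.9 after control serum, a fold change of 4.48 (SE 1.28, limma adjusted p = 0.481), and 0.21 in TASTPM (4.31 and 1.40 without the 4 libraries). Nr4a1, an immediate early receptor, was at 637 and 1061 in the high-monocyte WT libraries but at 49.0 and 1.09 in the other WT libraries given K/BxN serum. TASTPM libraries held 782 and 224, against 1.17 and 39.5, and Control ST libraries 0 to 66.9 in WT and 0 to 124 in TASTPM, so the groups overlapped in both genotypes. Its fold changes were 4.49 (SE 2.49) in WT and 1.49 (SE 2.49) in TASTPM, or 1.33 and -1.25 without the 4 libraries.

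Retinoid metabolism gave no call in 8 tested genes. Of these, 3 had a positive fold change in WT (54.0% did over all genes) and 2 in TASTPM (50.4%), or 3 and 4 without the 4 high-monocyte libraries. Aldh1a1, which makes retinoic acid, had log2 fold changes of -3.19 (SE 2.42) in WT and -0.84 (SE 2.42) in TASTPM, or -3.79 and -0.50 without them. Rdh12, a retinol dehydrogenase, had 2.23 (SE 1.90) and -0.10 (SE 1.90), or 1.58 and -2.64. Bco2, which cleaves carotenoids, had -0.65 (SE 0.41) and -0.58 (SE 0.41), or -0.10 in both. Dhrs3, a retinaldehyde reductase and itself a RAR target, had log2 fold changes of -0.40 (SE 0.25) and -0.53 (SE 0.25), or -0.28 and -0.21 without the 4 libraries. Tgm2, the other RAR target tested, had -0.29 and 0.43, or -0.24 and 0.66 without them. The other 7 of the 9 RAR targets listed were not analysed here.

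PPAR targets were all on the higher side in WT. All 10 tested had a positive fold change (median 0.88, against 0.06 and 54.0% positive over all genes tested), and 9 of 10 did in TASTPM (median 0.44, against 0.01 and 50.4%), while 0 passed the test in either. Plin2, which coats lipid droplets, was at 6539, 4276, 1327 and 1241 normalized counts in WT libraries after K/BxN serum and at 1380, 1175 and 1138 after control serum. Its fold change was 1.09 (SE 0.58) in WT and 0.83 (SE 0.58) in TASTPM. Cpt1a, which carries fatty acids into mitochondria, had a fold change of 2.43 (SE 0.78) in WT and 0.83 (SE 0.78) in TASTPM, and Cd36, a fatty acid transporter, 4.66 (SE 2.12) and -2.18 (SE 2.12). Without the 4 high-monocyte libraries these were 1.58 and -0.17 for Cpt1a, 3.60 and -6.71 for Cd36, and 0.06 and 0.05 for Plin2, and the medians were 0.12 in WT and 0.05 in TASTPM, and 8 and 6 of 10 were positive.

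LXR targets had medians of -0.38 in WT and -0.19 in TASTPM over 13 tested genes, with 0 called, and of -0.18 and 0.03 without the 4 libraries. Pltp, a phospholipid transfer protein, was at 3119 and 1498 normalized counts in WT libraries 1 and 2 after K/BxN serum against 0 and 44.7 in libraries 3 and 4. Its fold changes were 4.86 (SE 2.24) in WT and 1.82 (SE 2.24) in TASTPM, or 0.70 and -0.07 without the 4 libraries. Apoe, the lipid carrier, ranged from 4624 to 54391 over the 14 libraries and had fold changes of 0.96 (SE 0.83) and 0.56 (SE 0.83), which turned to -0.30 and -0.29 without the 4 libraries. Of the enzymes that make oxysterols, Cyp46a1 had fold changes of -2.35 (SE 1.81) in WT and -1.01 (SE 1.81) in TASTPM, or -1.53 and -1.92 without the 4 libraries. Ch25h ran from 0 to 523 normalized counts over the libraries and had fold changes of -0.998 (SE 2.35) and -0.31 (SE 2.35), or -2.24 and -4.31. Neither passed. Among 3 vitamin D enzymes and targets, Spp1 had fold changes of 1.77 (SE 1.57) in WT and 3.05 (SE 1.57) in TASTPM, or 0.04 and 1.21 without the 4 libraries, and 0 were called.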

How the data were processed

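The authors amplified cDNA from sorted microglia, aligned reads with HISAT2 2.1 to GRCm39, counted them with featureCounts 1.5.2 and deposited a signal in which the counts of each library are scaled by 1 factor. Every value was a whole multiple of 1 read (100% within 0.01), so whole reads were recovered. The strand setting of the counting is not given in the sources used here, and exons of Rara, Rarg, Pparg, Ppard and Nr1h3 overlap antisense genes by up to 5.06%. Column names matched sample labels for TASTPM K/BxN ST only, and the other libraries are numbered in the order of the deposited columns within their group.

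Of 14336 entries, 7 were repeats. The 12645 genes that reached 10 reads in 7 or more libraries were tested on log2(value + 1) with limma 3.58.1 (trend, 1 fit to the 4 groups, R 4.3.3), called at Benjamini-Hochberg adjusted p below 0.05 and absolute log2 fold change above 1. Because the deposited unit is not a count, edgeR 4.0.16 and DESeq2 1.42.0 were alternatives on recovered reads. edgeR called 0 genes in each of the 5 comparisons. Tests were checked on simulated data, where DESeq2 made more false calls than limma or edgeR and also found more of the changed genes. Which of its calls in the deposited data are false was not tested. Libraries above 5 times the highest Control ST monocyte marker sum were called high in monocyte markers.

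Floors are 3 reads. Lower bounds use the highest floor among the libraries of the group at 0. They were first computed with the mean floor, and the stricter choice was made after the values were seen. Floors cover counting error alone. Named genes are all receptors, the 5 genes most like Rarg, Rara and Pparg, called list genes plus the 3 with the largest mean serum change per list, and the 3 most abundant monocyte and microglia markers. The markers S100a4, Vcan and Ace were named after their values were seen. A few items that this rule or the study's design would name are not reported here. Receptors and lists were chosen with earlier results of these data known. Positions are from GENCODE vM39, later than the authors' annotation. No replicate pair of libraries was alike within sampling noise (lowest chi-square per gene 42.4).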

Additional observations from a re-analysis of the deposited data

Results flagged for a closer look

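Rarg was the 1 result flagged, on the linear scale only. All 3 TASTPM Control ST libraries were above the WT Control ST mean of 0, and all 4 TASTPM K/BxN ST libraries were below the linear WT K/BxN ST mean of 122 normalized counts, which the WT library at 254 raised. On the log2 scale this did not hold, because TASTPM K/BxN ST replicate 1 (6.73) was above the WT K/BxN ST mean of 6.60. The interaction of genotype and serum was -4.70 on the log2 scale. It uses the WT libraries that chose the gene, so it is a description, and its size rests on the 3 WT Control ST libraries at 0 reads. Under K/BxN ST the groups overlapped and the genotype difference was -0.58 (SE 0.83), or -0.19 (SE 1.43) without the high-monocyte libraries, so opposite changes are not shown. No single library stood out from its group of 4 in the 16 groups checked. That check cannot flag a pair of libraries that stand apart together, as for Rara and Pparg, and the groups of 3 were not checked.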

How the results depend on the processing

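Rarg was chosen on the WT libraries, so the calls of it that follow are a description of how they vary and no test. In the WT serum comparison 1 receptor (Rarg) was called, and the number was 0 with edgeR, limma voom, a pseudocount of 5, only the 2 groups compared, the monocyte and neutrophil score as a covariate, and without the 4 high-monocyte libraries, and 2 (Rara and Rarg) with DESeq2 without a filter. Leaving out each library in turn gave 0 to 1, with 0 without WT K/BxN ST library 1, 2 or 3, TASTPM K/BxN ST replicate 1 or 2, or TASTPM Control ST library 2. DESeq2 with and without the filter called 1 (Rarg) for the interaction and 1 (Rarg) for TASTPM against WT under Control ST, both of which use the WT Control ST libraries at 0. The fold change of Rarg in WT ran from 4.35 to 9.95 and in TASTPM from 1.11 to 2.57 over 31 alternatives each. Over all genes, DESeq2 with the filter called 127 in WT and 18 in TASTPM, and without it 275 and 88. The causes of these differences were not tested. No paired analysis was possible because the groups share no replicate number.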
